A study of Populus davidiana with 6 samples.

Results

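The 200 loci described here had the steadiest transcript levels in the leaf of Populus davidiana, an aspen, over every sample measured. They were chosen from the deposited FPKM values (a level of fragments corrected for transcript length and for sequencing depth). The FPKM of all transcripts of a locus were summed. Loci were eligible if they spanned at least 300 bases, carried an identifier of the reference annotation (starting with POPTR_) and had a mean of 20 to below 500 FPKM over the 6 samples. Among the 6431 eligible loci, out of 40537 in all, the 200 with the lowest coefficient of variation (CV, the SD over the 6 samples as a percentage of the mean) form the list, which is 3.11% of the eligible loci. The choice used the level in each of the 6 samples, so the steadiness of these loci and the smallness of their group differences are descriptions, and no test is offered for them.

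The samples were leaves of the cultivar Palgong1, labelled drought sensitive and at the seedling stage, from plants about 6 weeks old grown in sterile culture on a medium with sucrose and an auxin. In 3 air-dried samples the plants had been lifted out of the medium, rinsed and exposed to air for some 10 min, as a drought treatment. The other 3 were control samples, with handling not given in the sources used here. No label states that the replicates are separate plants, so p-values measure no more than the variation among these 6 samples, which may be technical.

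Some genes are transcribed at much the same rate whatever a leaf is doing. They are often called housekeeping genes, since many serve processes that every cell runs all the time, such as protein synthesis, protein turnover and the cytoskeleton. Plant studies use a handful of them (commonly actin, tubulin, ubiquitin or elongation factor genes) as fixed points against which a stress response is measured, and their steadiness has to be checked anew in each species, tissue and treatment. The deposited files pair 0 of the 112919 transcripts with a gene name, and no table of names was used here, so the loci below are known by identifier only, their functions are not given and no leaf marker gene could be looked up.

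Control replicate 1 was the sample least like the rest. Across the 21963 tested loci of 300 bases or more, its Pearson correlations on log2(FPKM + 1) with the other samples were 0.860 to 0.889, against 0.926 to 0.980 among the other 5. Loci are not independent replicates, and these values only describe the samples. Each sample had 21755 to 22461 loci at 1 FPKM or more. Median-ratio size factors over loci of 300 bases or more lay between 0.981 and 1.02, a spread that is not small beside the lowest CVs given below. The depth is unknown from FPKM, so no interval for counting error can be set beside a value.

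The 10 steadiest loci had CVs of 0.696% to 1.67%. The lowest CV on the deposited scale, 0.696%, belonged to POPTR_0014s02550.r1 on the plus strand of chromosome 14 (2130180 to 2136503), at 244, 245 and 246 FPKM in the air-dried leaves, against 245, 247 and 248 FPKM in the control leaves. POPTR_0012s07180.r1, on the plus strand of chromosome 12 (7958426 to 7964675), had a CV of 0.746% at a much lower level, with 24.2, 24.1 and 24.5 FPKM in air-dried and 24.3, 24.4 and 24.1 FPKM in control leaves. POPTR_0001s18040.r1, on the minus strand of chromosome 1 (15016776 to 15022271), had 40.0, 40.5 and 40.3 FPKM in air-dried and 40.5, 40.8 and 40.0 FPKM in control leaves (CV 0.764%). In each of these 3 loci the groups overlapped. After division by size factors the CV of POPTR_0014s02550.r1 was 1.88%, above the 0.975% of POPTR_0012s07180.r1 and the 1.30% of POPTR_0001s18040.r1, so its first place depended on the scale. Coordinates are as deposited, on a build not given in the sources used here, and the tables give no exons.

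POPTR_0013s09660.r1 on chromosome 13 (9500778 to 9505757) came next, with 27.6, 27.6 and 27.2 FPKM in air-dried and 27.8, 27.9 and 28.1 FPKM in control leaves (CV 1.23%). It was the only 1 of the 10 loci of lowest CV whose groups did not overlap: all 3 air-dried values lay below all 3 control values, by 1.85% of the control mean on average. With size factors its CV was 2.30% and its groups overlapped. POPTR_0018s02890.r1 on chromosome 18 (2529987 to 2537970) had 58.5, 57.1 and 56.5 FPKM in air-dried and 56.5, 57.6 and 56.6 FPKM in control leaves. POPTR_0008s17140.r1 on chromosome 8 (11516555 to 11525641) had 33.8, 34.0 and 33.0 FPKM in air-dried and 34.1, 34.5 and 33.7 FPKM in control leaves. Both overlapped between groups. Where a CV of a single locus is given without a named sample, here and below, that sample is the one whose removal gave the lowest CV. The CV of POPTR_0018s02890.r1 was 1.39% over all samples, 0.861% without air-dried replicate 1 and up to 1.56% without another sample. That of POPTR_0008s17140.r1 was 1.53% over all samples, 0.979% without air-dried replicate 3 and up to 1.71% without another sample. The span of POPTR_0018s02890.r1 overlaps that of another locus, and the kit used keeps no strand information, so reads of the overlapping part cannot be told apart.

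The other 4 of the first 10 covered a wide range of levels. POPTR_0025s00670.r1, the only 1 of the 10 outside the numbered chromosomes (scaffold_25, 336795 to 344293), had 31.2, 32.3 and 32.2 FPKM in air-dried and 32.4, 32.2 and 32.7 FPKM in control leaves. Its CV was 1.58% as deposited, 2.54% with size factors, 0.606% without air-dried replicate 1 and up to 1.76% without another sample. POPTR_0015s08320.r1 on chromosome 15 (9580164 to 9585793) had 75.4, 73.2 and 74.2 FPKM in air-dried and 74.9, 72.7 and 75.4 FPKM in control leaves. POPTR_0005s08140.r1 on chromosome 5 (5599466 to 5601212) had 87.5, 89.7 and 89.1 FPKM in air-dried and 88.6, 86.8 and 86.0 FPKM in control leaves. In each of these 3 loci the ranges of both groups overlapped. POPTR_0015s10920.r1 on the same chromosome 15 (11667283 to 11669716) was the most abundant of the 10, with 286, 284 and 296 FPKM in air-dried and 286, 289.8 and 282 FPKM in control leaves. Its CV was 1.67% over all samples, 0.982% without air-dried replicate 3 and up to 1.86% without another sample. The plot of the 10 loci by sample shows that no sample was high or low in all of them.

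**Figure D1:**
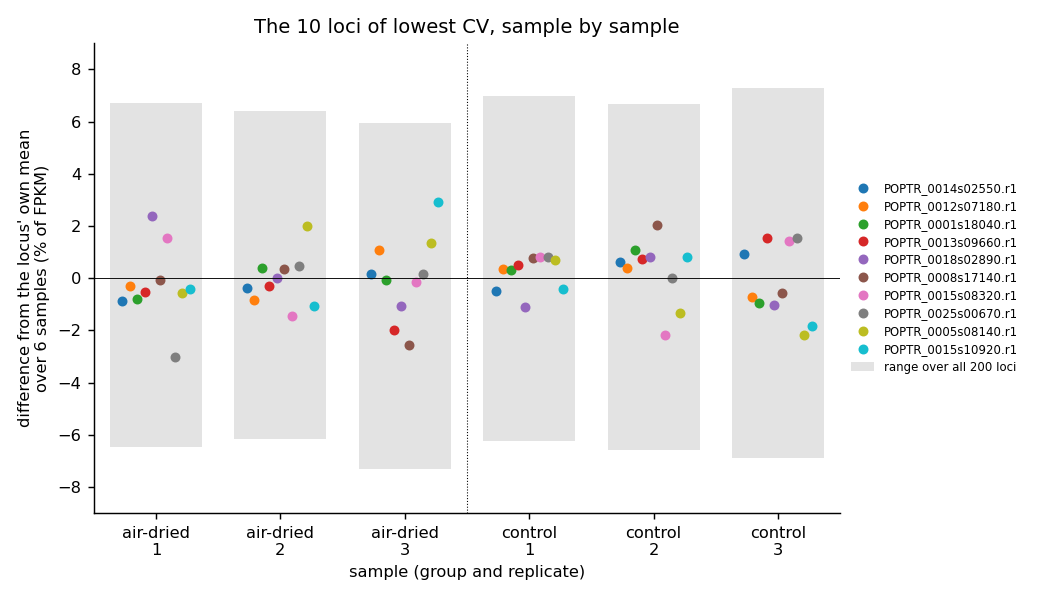
Each point is 1 of the 10 loci of lowest CV in 1 sample, as the difference from that locus' own mean over the 6 samples in percent of FPKM. Grey bars give the range over all 200 loci. The 10 loci stay between -3.02% and 2.91% in every sample, while the 200 loci reach from -7.32% to 7.31%.

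Over the whole list the CV ran from 0.696% to 3.96%, with a median of 3.15%. It was under 2% in 18 loci, from 2% to below 3% in 64 and 3% or more in 118. The eligible loci outside the list had a median CV of 12.8% (quartiles 8.53% and 20.2%). The limit of the list falls in a smooth run of values: the last 3 loci inside it, POPTR_0005s07110.r1, POPTR_0006s28810.r1 and POPTR_0014s07690.r1, had CVs of 3.958%, 3.959% and 3.961%, and the first 3 outside it, POPTR_0001s17110.r1, POPTR_0001s19090.r1 and POPTR_0006s05380.r1, had CVs of 3.965%, 3.969% and 3.973%. The loci just outside thus varied scarcely more than those just inside. Without control replicate 2 the CV of POPTR_0014s07690.r1 was 2.53%, and without another sample it was up to 4.42%.

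The steady loci covered most of the range of levels the rule admits. Their means ran from 20.5 to 397 FPKM with a median of 44.6 FPKM, against 40.1 FPKM in the eligible loci outside the list, and 41 of the 200 (20.5%) reached 100 FPKM, against 16.8% of the others. The most abundant member was POPTR_0015s11640.r1 on chromosome 15 (12188619 to 12195541), with 399.9, 408 and 396 FPKM in air-dried and 388, 389.7 and 398 FPKM in control leaves. POPTR_0006s10080.r1 on chromosome 6 had 357, 358 and 364 FPKM in air-dried and 369, 363 and 335 FPKM in control leaves, with control replicate 3 the lowest. Its CV was 3.38% over all samples, 1.37% without that one and up to 3.78% without another sample. POPTR_0008s20460 on chromosome 8 had 326, 344 and 332 FPKM in air-dried and 324, 318 and 343 FPKM in control leaves. At the low end POPTR_0015s14280.r1 on chromosome 15, whose span overlaps another locus, averaged 20.8 ± 0.593 FPKM in air-dried and 20.2 ± 0.662 FPKM in control leaves (SD, n = 3 each). POPTR_0001s33190.r1 averaged 21.3 ± 0.376 FPKM in air-dried and 21.2 ± 1.14 FPKM in control leaves (SD, n = 3 each), and POPTR_0012s00760.r1 averaged 22.3 ± 1.28 FPKM in air-dried and 22.1 ± 0.308 FPKM in control leaves (SD, n = 3 each). The plot of spread against level shows the list along the lower edge of the eligible loci up to 397 FPKM.

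**Figure D2:**
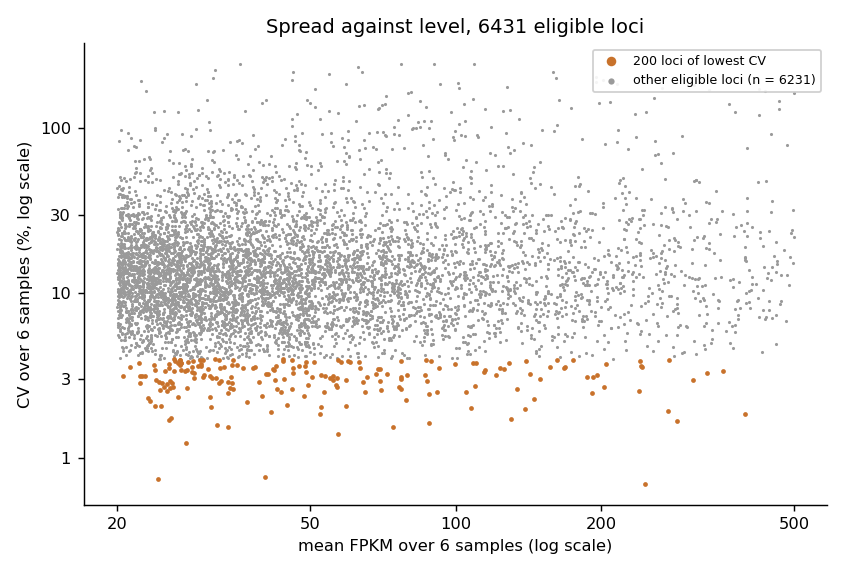
Each point is an eligible locus, with its mean FPKM over 6 samples on a log axis and its CV over the same samples in percent on a log axis. The 200 loci of the list (orange) reach at most 3.96% at levels from 20.5 to 397 FPKM; this is how they were chosen.

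Within the list no sample held the highest or the lowest value at most loci. The rule used these same values and passed over loci in which 1 sample stood apart, so the counts, departures and sums given here are descriptions. Control replicate 1, which gave the highest value of 30.4% of all eligible loci and the lowest of 22.1%, gave the highest value in 29 of the 200 loci (14.5%) and the lowest in 36 (18.0%). Control replicate 2 held the highest value most often, in 45 loci (22.5%), and control replicate 3 least often, in 27. The median departure of a sample from the locus means lay between -0.109% in control replicate 1 and 0.238% in air-dried replicate 2. The summed level of the 200 loci was 14524, 14594 and 14559 FPKM in air-dried replicates 1, 2 and 3, against 14494, 14563 and 14572 FPKM in control replicates 1, 2 and 3. These sums span less than 1% of their level. As a share of all FPKM at loci of 300 bases or more they ran from 0.0601% in the lowest sample to 1.55% in the highest. Since the sums of the members were nearly equal, this range lies in the total FPKM of such loci, which differed widely between samples.

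Air-drying was compared with control leaves to see whether any of these loci moved between groups. The 22835 loci averaging 1 FPKM or more, all 200 members among them, were fitted together by limma on log2(FPKM + 1), and p-values were adjusted over them by Benjamini and Hochberg's method. None of the 200 was called (adjusted p under 0.05), against 6.78% of all loci tested (4.16% higher and 2.61% lower in air-dried leaves) and 10.3% of the eligible loci, and 0 of the 200 had an unadjusted p under 0.05, against 22% of all loci tested. No other tool was run. The list was chosen on these same values, so nothing is read from the count. In bulk leaf samples, fewer cells of a type and less RNA per cell cannot be told apart. The median log2 fold change of the members was 0.00015 and their median absolute value 0.03, beside 0.01 and 0.21 for all loci tested. Means were higher in air-dried leaves at 99 members and lower at 101, and at 103 of the 200 the group means were within 2% of each other.

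Complete separation of the groups was less frequent in the list than among the loci it was drawn from, and nothing is read from this, since the rule used the same values. In 26 of the 200 loci (13.0%) the 3 air-dried values lay wholly above (13 loci) or wholly below (13 loci) the 3 control values, against 30.4% of all loci tested and 37.2% of the eligible loci. With size factors the groups were separate in 24 of the 200. The differences of these 26 were 2.16% to 6.87% where air-dried leaves were higher, and fell by 1.85% to 5.50% of the control mean where they were lower. The member with the largest difference was POPTR_0006s15850 on the plus strand of chromosome 6 (13524027 to 13526152), with 27.4, 28.3 and 27.8 FPKM in air-dried and 26.5, 26.0 and 25.7 FPKM in control leaves (limma log2 fold change 0.09, SE 0.05, adjusted p = 0.381). POPTR_0009s03130.r1 on chromosome 9 (3813569 to 3822129) had 24.6, 24.2 and 24.8 FPKM in air-dried and 23.1, 23.0 and 22.9 FPKM in control leaves (limma log2 fold change 0.09, SE 0.05, adjusted p = 0.381). In both loci all 3 air-dried values lay above all 3 control values. POPTR_0010s26000.r1 on chromosome 10 (21390793 to 21398039) had 78.9, 80.1 and 79.2 FPKM in air-dried and 73.8, 76.9 and 72.9 FPKM in control leaves (limma log2 fold change 0.09, SE 0.06, adjusted p = 0.409). None of these 3 passed the test.

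Because the rule used all 6 samples, the choice was repeated with each sample left out, and the level of that sample was then read at the 200 loci of lowest CV over the other 5. The left-out sample took no part in that choice. At these loci the median departure of the left-out sample from the mean of the other 5 (the median absolute log2 ratio, written as a percentage) was 4.36%, 4.16% and 3.78% for air-dried replicates 1, 2 and 3, and 6.53%, 4.32% and 4.39% for control replicates 1, 2 and 3. Over all eligible loci it was 11.3%, 10.3% and 10.3% for air-dried replicates 1, 2 and 3, and 16.0%, 9.63% and 11.6% for control replicates 1, 2 and 3. At the chosen loci the left-out sample was thus nearer to the other samples than at eligible loci in general for each of the 6 samples. Over the 5 samples used to choose them, the median CV of these loci was 2.73% to 2.91%. The left-out sample was within 1.1-fold of the mean of the other 5 at 164, 171 and 173 of the 200 loci for air-dried replicates 1, 2 and 3 (82.0%, 85.5% and 86.5%). For control replicates 1, 2 and 3 the counts were 135, 176 and 157 (67.5%, 88.0% and 78.5%). Over all eligible loci the shares, in the same order, were 45.3%, 48.8% and 49.0%, and 35.4%, 51.4% and 44.8%. With size factors the counts of the 200 were 160, 174 and 173, and 139, 175 and 147. The plot of the left-out samples shows the departure to be widest in control replicate 1, for chosen and eligible loci alike.

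**Figure D3:**
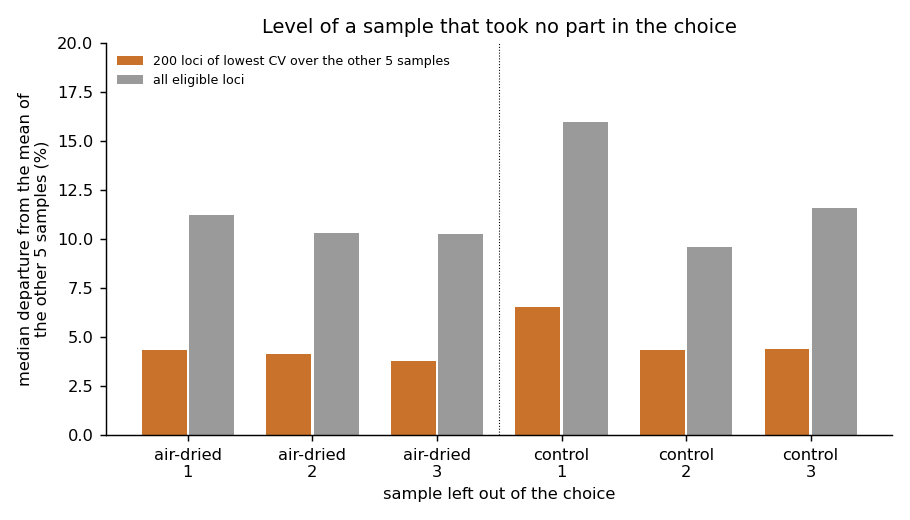
For each sample left out of the choice, bars give the median departure of that sample from the mean of the other 5 samples in percent, at the 200 loci of lowest CV over the other 5 (orange) and at all eligible loci (grey). Orange bars run from 3.78% to 6.53% and grey bars from 9.63% to 16.0%.

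The steady loci had longer spans, and more listed transcripts, than the eligible loci they were drawn from, though the rule ranked neither property. Span and transcript number take in every listed transcript, also those near 0 FPKM, so they describe the listing. At POPTR_0018s02890.r1, for example, the main transcript covers 2565 bases of a span of 7984. Their median span from first to last base was 4865 bases (quartiles 3584 and 6748), against 3347 bases in the eligible loci outside the list (quartiles 2180 and 4932). The share of eligible loci that were in the list was 0.575% (2 of 348) at spans of 300 to 999 bases, 0.725% (7 of 965) at 1000 to 1999 and 2.41% (62 of 2574) at 2000 to 3999. It was 4.87% (101 of 2074) at 4000 to 7999 bases and 7.08% (26 of 367) at 8000 to 14999, and 1.94% (2 of 103) at 15000 bases or more. The share thus grew with span up to 14999 bases and was lower among the longest loci, where only 2 members lie. The longest member was POPTR_0001s23710.r1 on the minus strand of chromosome 1 (23097399 to 23117332, 19934 bases), which averaged 58.1 ± 2.11 FPKM in air-dried and 56.1 ± 2.27 FPKM in control leaves (SD, n = 3 each). The shortest was POPTR_0001s11040 on the plus strand of the same chromosome (8557758 to 8558488, 731 bases), with 30.2, 28.9 and 28.3 FPKM in air-dried and 28.6, 27.4 and 27.5 FPKM in control leaves.

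Members had a median of 4 listed transcripts, against 3 in the other eligible loci. Of the eligible loci with 1 transcript 1.45% (17 of 1171) were in the list, and of those with 2 transcripts 1.84% (25 of 1358). The share was 3.56% (67 of 1884) with 3 to 4 transcripts, 4.54% (74 of 1630) with 5 to 9 and 4.38% (17 of 388) with 10 or more. Span and transcript number go together. Within spans of 4000 to 7999 bases, 5.35% of loci with 3 or more transcripts were members (94 of 1758), against 2.22% of those with 1 to 2 (7 of 316). Within 2000 to 3999 bases the shares were closer, 2.65% (40 of 1509) with 3 or more transcripts and 2.07% (22 of 1065) with 1 to 2. POPTR_0011s01420.r1 on chromosome 11 (995984 to 1003366) had the most transcripts of any member, 20, and had 40.4, 41.7 and 43.0 FPKM in air-dried and 43.6, 44.8 and 42.1 FPKM in control leaves. The number of fragments behind each locus is unknown, and its part in these shares was not tested.

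**Figure D4:**
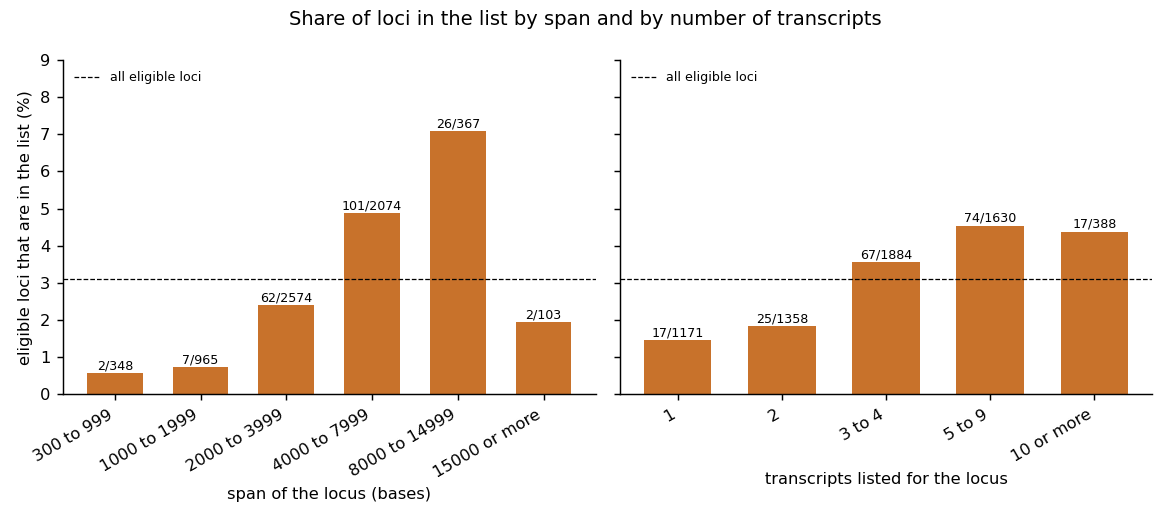
Bars give the percentage of eligible loci that are in the list, by span of the locus in bases (left) and by number of listed transcripts (right), with members over eligible loci printed above each bar. The dashed line is the share over all eligible loci, 3.11%, which is passed from 4000 to 14999 bases and from 3 transcripts upward.

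Other properties of the loci differed less or rested on few members. Identifiers with a revision suffix (.r1), which the files use for exactly those reference loci that hold a new transcript, made up 179 of the 200 (89.5%), against 80.3% of the other eligible loci. Known transcripts carried a median of 77.5% of a member's FPKM, against 78.4% elsewhere, and in 70 members (35.0%) they carried under 50%, against 32.7% elsewhere. The span overlapped that of another locus in 15 members (7.50%), against 11.6% elsewhere. A neighbour on the opposite strand, facing away, began within 1000 bases of 5 members (2.50%), against 4.45% elsewhere. Members lay on all 19 chromosomes, 198 of them, and 2 lay on scaffold_25. The share of eligible loci in the list ran from 1.02% on chromosome 7 (2 of 197) to 6.18% on chromosome 11 (11 of 178). No 2 members were next to each other among all loci, and 4 pairs were next to each other among the eligible loci, with 22431 to 116775 bases between them.

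Within most members the main transcript varied more than the locus. Of the 200 members 183 had 2 or more transcripts. Their main transcript, the one with the highest mean, had a median CV of 9.64%, while the loci themselves had a median of 3.14%. In the other eligible loci with 2 or more transcripts the medians were 17.6% for the main transcript and 12.1% for the locus. The members were chosen for a low CV of the sum, so a main transcript less steady than its locus follows in part from the choice. In 49 of the 183 the main transcript varied no more than the limit of the list (3.96%), in 134 it varied more, in 89 its CV was over 10% and in 12 over 50%. The share of the main transcript in its locus moved by a median of 15.0 percentage points between its lowest and its highest sample, against 20.8 points in the other eligible loci with 2 or more transcripts. It moved by 50 points or more in 21 members (11.5%), against 13.4% elsewhere, and by under 5 points in 47 (25.7%), against 18.4% elsewhere. The choice used the sum and not these shares, but both come from the same values, and the FPKM of overlapping transcripts are the apportioned estimates of the authors' software, for which the files give no error.

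In the extreme cases the main transcript was listed near 0 in some samples, with another in its place, while the sum held. The more abundant of the 2 known transcripts of POPTR_0008s14650.r1 on the plus strand of chromosome 8 (9725430 to 9729504) made up 100.0%, 71.0% and 100.0% of its locus in air-dried replicates 1, 2 and 3, against 98.0%, 99.4% and 0.00444% in control replicates 1, 2 and 3. In control replicate 3 a new transcript, which starts at 9725430 where both known ones start at 9725508, stood at 40.3 FPKM. The locus as a whole had 40.8, 40.0 and 39.5 FPKM in air-dried and 42.1, 42.9 and 40.5 FPKM in control leaves, with control replicate 3 inside the range of the other samples. At POPTR_0015s06560.r1 on chromosome 15 (7502589 to 7508633) the sample was control replicate 1: the known transcript made up 92.0%, 98.6% and 97.2% of the locus in air-dried leaves, against 0.0652%, 100.0% and 100.0% in control leaves. In control replicate 1 a new transcript with the same start and end held 98.0% of the locus. At POPTR_0018s08840.r1 on chromosome 18 (9763218 to 9767301) the known transcript held 93.4%, 36.9% and 0.000764% in air-dried leaves, against 98.0%, 93.2% and 0.000261% in control leaves, so both groups held samples with and without it. The plot of main transcripts shows these 3 loci beside the CVs of all 183.

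**Figure D5:**
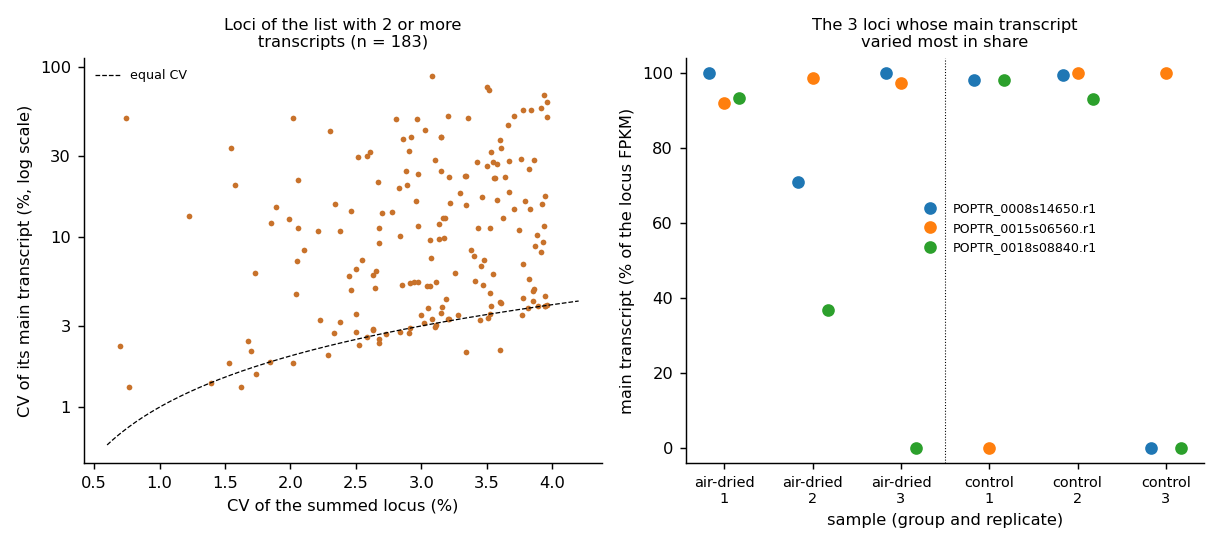
Left, the CV of the main transcript (percent, log axis) against the CV of the summed locus (percent) for the 183 members with 2 or more transcripts; points above the dashed line have a main transcript less steady than their locus. Right, the share of the locus FPKM held by the main transcript in each sample for the 3 members in which it moved most, with some samples near 0% and others near 100%.

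Of the 21 members with a movement of 50 points or more, the sample farthest from the median share was control replicate 1 in 9 and control replicate 3 in 8. Without control replicate 1 there were 11 such members, and without control replicate 3 there were 13. The share of the main transcript lay wholly above or wholly below in air-dried leaves, without overlap, in 29 of the 183 (15.8%), against 12.9% of all eligible loci with 2 or more transcripts. In other members the main transcript did not give way: in POPTR_0013s07910.r1 on chromosome 13, POPTR_0002s04580.r1 on chromosome 2 and POPTR_0006s11860.r1 on chromosome 6 it held 100.0% of the locus in every sample. In the first of these the transcript is a new one, at 52.0, 51.4 and 54.1 FPKM in air-dried and 52.0, 53.3 and 52.5 FPKM in control leaves, while the known transcript was listed near 0.

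When known transcripts alone were summed, 1 of the 178 members that still passed the filter on low values was called, POPTR_0002s20530.r1 on the plus strand of chromosome 2 (16601466 to 16604456), which is named here after its values were seen. Of all 17191 loci fitted on known transcripts, 4.23% were called. The known transcripts of POPTR_0002s20530.r1 stood at 101, 99.5 and 105 FPKM in air-dried leaves, against 137, 131 and 124 FPKM in control leaves (limma log2 fold change -0.36, SE 0.07, adjusted p = 0.0449). Its new transcripts were higher in air-dried leaves, with 83.4, 92.6 and 85.4 FPKM in air-dried and 50.5, 63.2 and 73.3 FPKM in control leaves. Neither sum overlapped between groups. The list holds loci with a steady total, so the difference in new transcripts follows from that in known ones and is no separate observation. The split between transcripts is the apportioned estimate of the authors' software. The sum of both was 184, 192 and 190.2 FPKM in air-dried and 187, 195 and 197 FPKM in control leaves, which did overlap. The call is 1 among 178 and the adjusted p is close to the threshold.

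The make-up of the list depended on the samples and on the scale, and a smaller set was chosen under each of these settings. Of the 200 members 157 were chosen again after division by size factors. Leaving out a sample kept 143, 151 and 153 of them for air-dried replicates 1, 2 and 3, and 111, 149 and 141 for control replicates 1, 2 and 3, so the list changed most without control replicate 1. Whichever sample was left out, and with size factors too, 87 members stayed, among them all of the 10 of lowest CV. These choices reuse the same values, so staying is no independent support. The 87 had a median CV of 2.54% and a highest of 3.18%, against a median of 3.55% in the rest of the list. A low CV is what kept a locus in these choices, so nothing is read from this contrast. In 37 of the 87 the main transcript was also within the limit of the list or was the only one, and 36 of these overlapped no other locus, with means from 24.8 to 287 FPKM. They included POPTR_0014s02550.r1, POPTR_0001s18040.r1, POPTR_0008s17140.r1, POPTR_0005s08140.r1 and POPTR_0015s10920.r1 of the first 10. POPTR_0012s07180.r1 was not among them: its CV of 0.746% was that of 8 transcripts together, and its main transcript had a CV of 49.97%. Nor were POPTR_0015s08320.r1, POPTR_0025s00670.r1 and POPTR_0013s09660.r1, whose main transcripts had CVs of 33.3%, 20.3% and 13.2%. Members with a single transcript, in which locus and transcript are the same, numbered 17, with CVs of 1.91% to 3.90% and means of 23.9 to 274 FPKM.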

How the data were processed

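Leaf poly(A) RNA was sequenced on a HiSeq after TruSeq RNA library preparation, according to the labels' protocols. The authors deposited 1 FPKM value for each transcript and sample, per the file headers. FastQC, TopHat and Cufflinks are named in the submitters' processing notes. Versions, settings, build and annotation: not given in the sources used here.

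Transcripts were summed by locus, and the list was taken by the rule given at the opening of the results. FPKM are no counts, so limma-trend was run without a block on log2(FPKM + 1) at 22835 loci, and a Benjamini-Hochberg adjusted p under 0.05 was a call. This scale understates changes of low loci. The fit was tested on simulated data with known changes, all far larger than the differences within the list. That test does not show whether differences as small as those of the members would be found. Computation used R 4.3.3, limma 3.58.1, Python 3.11.15 and pandas 2.3.3.

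The members and lists were chosen with earlier results of these data known. Named loci are the 10 of lowest CV, extremes of level, span, transcript number, fold change and main transcript share, and 3 on each side of the limit. Planned gene lists by product name, leaf markers included, could not be applied without names. Alternatives covered pseudocount, filter, scaling, variance trend, a replicate block, short loci, known transcripts, other measures of stability and each sample left out. Added after the data were seen were lists chosen on 1 group, transcript shares without each sample, and the CV and group overlap of named loci with size factors or without a sample.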

Additional observations from a re-analysis of the deposited data

How the results depend on the processing

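The count of called members was 0 under 15 of 16 alternatives and 1 with known transcripts only. The members were chosen for a small spread over these same values, which limits any group difference, so nothing is read from this count. The median log2 fold change of the members moved by less than the spread between replicates under all 16. The count of called loci, 1548, was 281 with the replicate number as a block, 727 with known transcripts only, and 373 to 1683 without 1 sample (523, 373 and 387 without air-dried replicates 1, 2 and 3, against 1683, 636 and 890 without control replicates 1, 2 and 3). The block changed no call among the members. Deviations of same-numbered samples from their group means correlated at 0.08, -0.18 and 0.20 across loci for replicates 1, 2 and 3. Of the 6 samples, 2 correlated best with their own number. With 3 samples per group these values cannot decide whether the replicate numbers pair the samples.

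Of the 200 loci, 75 were chosen again by the mean CV within groups, 76 from known transcripts only, 89 at 50 to below 500 FPKM, 26 on the air-dried samples alone, 49 on the control samples alone, and 111 to 153 without 1 sample. The median CV over all 6 samples was 5.69% in the list by CV within groups; over only the 3 samples used for the choice it was 0.843% in the air-dried and 1.24% in the control list. Loci without overlap between groups numbered 149, 127 and 128 of 200 in the same 3 lists, against 37.2% of all eligible loci and 30.4% of all loci tested. These lists were chosen for a small spread within 1 or both groups, which itself makes overlap rarer, so nothing is read from these counts. Loci with 1 transcript made up 83.0% of the list from known transcripts, by construction, and 15.0% of that from air-dried samples. Members whose main transcript share moved by at least 50 points numbered 11 to 22 without 1 sample; the cause was not tested. Depth is unknown, so how much of each CV is counting error was not available.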

Other observations

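Loci chosen for a low CV within 1 group also had a lower median CV in the other group than the eligible loci. The 200 loci of lowest CV over the 3 air-dried samples (median CV 0.843%) had a median CV of 7.31% over the 3 control samples, against 9.83% for all eligible loci. The 200 chosen on the control samples (median 1.24%) had a median CV of 4.46% over the air-dried samples, against 6.82%. The lowest of many CVs, each from 3 values, are bound to be higher in other samples. Nothing is therefore read from the rise between the chosen group and the other. The CVs over control samples also include control replicate 1, the sample least like the rest. The choices shared 10 loci with each other, and 26 and 49 with the list chosen on all 6 samples. In each case the samples in which the CV was read took no part in the choice, and these lists were added after the data were seen.

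The 200 eligible loci with the lowest mean CV within groups shared 75 loci with the 200 steadiest over all samples. Their median absolute log2 fold change between air-dried and control leaves was 0.14, and the largest was 2.41. In the eligible loci outside the 200 steadiest the median was 0.18. These sets are unlike: the first holds 75 loci that the rule chose for small spread over all samples, and the second holds none of them. Nothing is therefore read from the difference of the medians. The choice by CV within groups also fixed the spread that limma's test divides by, so calls in that list are not compared.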
